A study of Homo sapiens with 54 samples.

Results

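The response of parental MDA-MB-468 cells to the higher dose of cisplatin (CDDP), given alone, was described across all expressed genes. The members are the 3 libraries labelled 2.5 µM cisplatin and the 3 labelled control, both without olaparib, which makes 6 of the 54 libraries of the series. MDA-MB-468 is a BRCA1 wild type triple negative breast cancer (TNBC) line of basal-like type. The study compared parental and olaparib resistant (OlaR) cells of this line and of SUM1315, a BRCA1 mutant TNBC line, untreated or treated with olaparib, CDDP or both, and asked how acquired resistance bears on the response to CDDP. RNA was measured by sequencing from the 3′ ends of polyadenylated transcripts.

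The control cells grew in DMEM/F12 with 5% fetal bovine serum and received neither drug. The treated cells received CDDP overnight in the same medium. Groups of 3 libraries were also used for comparison at the lower dose of 1 µM CDDP in parental cells, in OlaR cells, and in OlaR cells given 2.5 µM CDDP. OlaR cells had been selected by stepwise exposure to olaparib and stayed in 15 µM olaparib throughout, so olaparib was present in both of their groups and in neither parental group. The sample titles and the paper give the higher dose as 2.5 µM, the design text of the series gives it as 2 µM, and the protocol text in the labels writes the doses in mM. Nothing in the labels says that the 3 libraries of a group came from separate cultures. The p-values therefore measure a spread between libraries of a condition, which may be technical. That spread was estimated over all 27 libraries and 9 conditions of the line, with information shared across genes. An SE or p-value thus need not follow the scatter of the libraries printed for a gene.

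CDDP binds purine bases and links them within a DNA strand or across both strands. These links stall replication forks and RNA polymerase, and their repair uses nucleotide excision, the Fanconi pathway, homologous recombination and translesion polymerases. Stalled forks activate the ATR and CHK1 kinases, which hold cells in S phase and G2, while kinases of the stress-activated MAPK pathways switch on AP-1 transcription factors such as JUN and ATF3. MDA-MB-468 carries mutant p53 and an amplified EGFR gene.

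The values are adjusted read counts, that is, reads per gene that the authors had brought to a common library size. Whole reads recovered from them gave a depth of 6637379 to 8222127 reads in the 6 libraries (median 7497829). The spread within conditions was larger than sampling noise. The chi-square per degree of freedom, computed over the libraries of each condition, was 3.20 in control and 2.67 in 2.5 µM CDDP libraries. Across all 9 conditions of the line it was 1.72 to 4.39. Pairs of libraries were not tested against that noise. Correlations of log2 values were 0.976 to 0.981 between libraries of the same condition and 0.966 to 0.970 between control and treated libraries. Epithelial markers were present. EPCAM, CDH1 and the keratins KRT7, KRT8, KRT18 and KRT19 were read in every library, EGFR had 2842 ± 97.9 adjusted read counts in control cells, and ERBB2 and ESR1 had 32.1 ± 6.40 and 63.4 ± 9.51 (SD, n = 3). Of the markers of other cell types, 1 of 6 for fibroblasts (COL1A1), 1 of 5 for leukocytes (CD14) and 1 of 3 for endothelial cells (PECAM1) passed the filter on low values. Their control means were 57.6, 66.5 and 10.5 adjusted read counts, and none of them passed the test.

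CDDP at 2.5 µM changed 337 of 13012 genes tested at an adjusted p (limma) at or under 0.05 and a change of at least 2-fold (2.59%). These differentially expressed genes (DEGs) were 213 higher (1.64%) and 124 lower (0.953%) in treated cells. Without the limit on fold change, 1737 genes passed in the higher direction (13.3%) and 1532 in the lower (11.8%). The median log2 fold change of all genes tested was 0.0086. As the values had been brought to a common library size, changes are relative to the total, and a shift of all genes together could not be seen. Libraries of the groups did not overlap for 194 of the 213 higher and 106 of the 124 lower DEGs, against 20.4% (above) and 18.6% (below) of all genes tested. In 11 of the higher and 3 of the lower DEGs, one of the groups held at most 3 reads in each library, and no fold is given for such genes. As the RNA came from whole cultures, a change in the mixture of cells, for example in their cell cycle phase, cannot be told apart from a change in each cell.

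**Figure D1:**
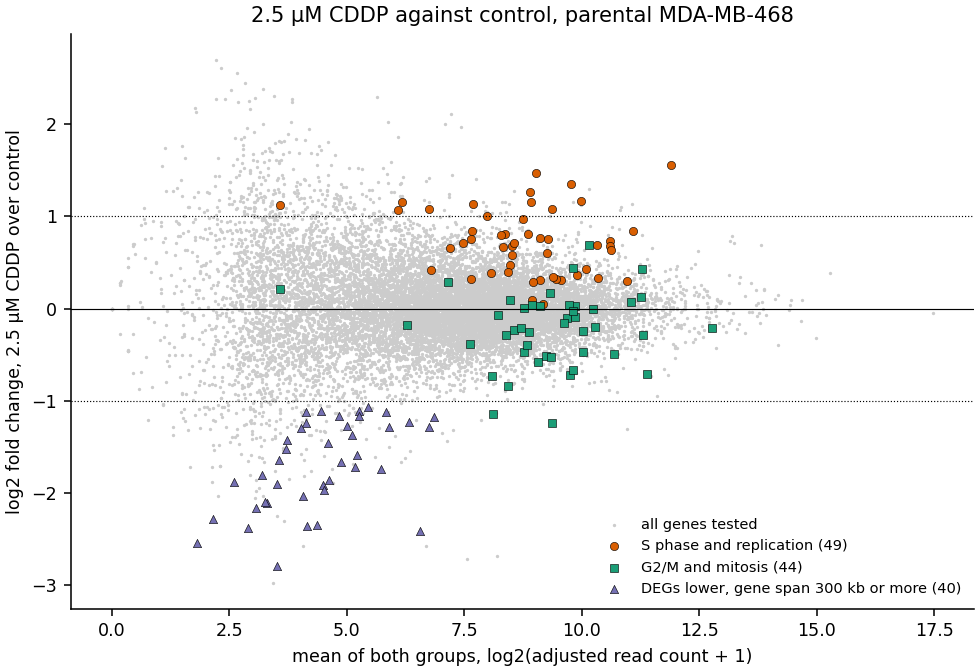
Each grey point is 1 of the 13012 genes tested, placed by its mean level in the 6 libraries (x axis, log2 of the adjusted read count plus 1) and its log2 fold change with 2.5 µM CDDP (y axis), with dotted lines at the limits of 1 and -1. The 49 S phase genes (circles) lie above 0, with 46 passing the test as higher, the 44 G2/M genes (squares) lie mostly around or below 0, and the 40 lower DEGs with a gene span of 300 kb or more (triangles) lie mostly at low levels. The groups of circles and squares are lists chosen by function with earlier results of these data known, and the triangles were chosen by their fall.

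The 10 largest rises, among DEGs that averaged 30 or more and had no overlap between control and treated libraries, were those of 8 protein-coding genes and 2 small RNAs. DKK1, a secreted antagonist of Wnt signalling (chr10:52314281-52317657 in GRCh38.p14, protein coding), had 14.4, 16.5 and 16.1 adjusted read counts in the control libraries and 65.3, 86.3 and 93.1 in the treated libraries. Every treated library was thus several times above every control library, and the log2 fold change was 2.30 ± 0.21 (SE) with an adjusted p of 1.46e-12 (limma). ANKRD1, a stretch- and YAP-responsive ankyrin repeat protein (chr10:90912096-90921087), had 19.8, 25.3 and 21.8 in control and 92.02, 86.5 and 103 in treated cells, a log2 fold change of 2.02 ± 0.37 with an adjusted p of 2.37e-05. DUSP1, a phosphatase that switches off MAP kinases (chr5:172768096-172771195), had 48.9, 43.2 and 68.6 in control and 219, 201 and 223 in treated cells (2.01 ± 0.23, adjusted p 1.35e-09). ATF3, a stress-induced partner of JUN (chr1:212565407-212620777), had 64.3, 72.2 and 70.2 in control and 292, 270.2 and 255 in treated cells (1.97 ± 0.17, adjusted p 1.2e-13). In these 4 genes the lowest treated library stood clear of the highest control library, but a lack of overlap was a condition for naming them. RRM2, the regulated subunit of ribonucleotide reductase, which makes deoxynucleotides (chr2:10122568-10211010), was the most highly read of the 10. It had 1862, 1885 and 2029 in control and 5764, 5622 and 5608 in treated cells (1.56 ± 0.05, adjusted p 1.27e-29).

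BIN1, a membrane-curving adaptor protein (chr2:127048023-127107154), rose from 22.2, 38.99 and 25.2 to 93.5, 105 and 114 (log2 fold change 1.86 ± 0.19, adjusted p 2.65e-11 by limma). MT1F, a metallothionein that binds metal ions through cysteines (chr16:56657959-56659303), rose from 21.2, 26.6 and 43.1 to 77.8, 101 and 90.7 (1.59 ± 0.23, adjusted p 3.32e-07). TUBA4A, an alpha-tubulin (chr2:219249710-219254740), rose from 18.2, 14.6 and 20.01 to 59.9, 31.6 and 74.7 (1.53 ± 0.21, adjusted p 1.56e-07), with wide scatter among the treated libraries. MT1F and TUBA4A belong to families of close copies, and reads shared among copies could have been counted for any of them. SNORA19, a guide RNA for pseudouridylation of ribosomal RNA (chr10:119060011-119060138), rose from 57.3, 54.1 and 52.4 to 213, 231 and 276 (2.11 ± 0.15, adjusted p 1.25e-16). SCARNA18, a guide RNA of Cajal bodies (chr5:83064204-83064337), rose from 17.6, 36.7 and 29.4 to 85.6, 85.6 and 67.3 (1.53 ± 0.25, adjusted p 4.68e-06). Both small RNAs are encoded inside longer host genes, and reads of a host transcript over them cannot be told apart in gene counts.

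**Figure D2:**
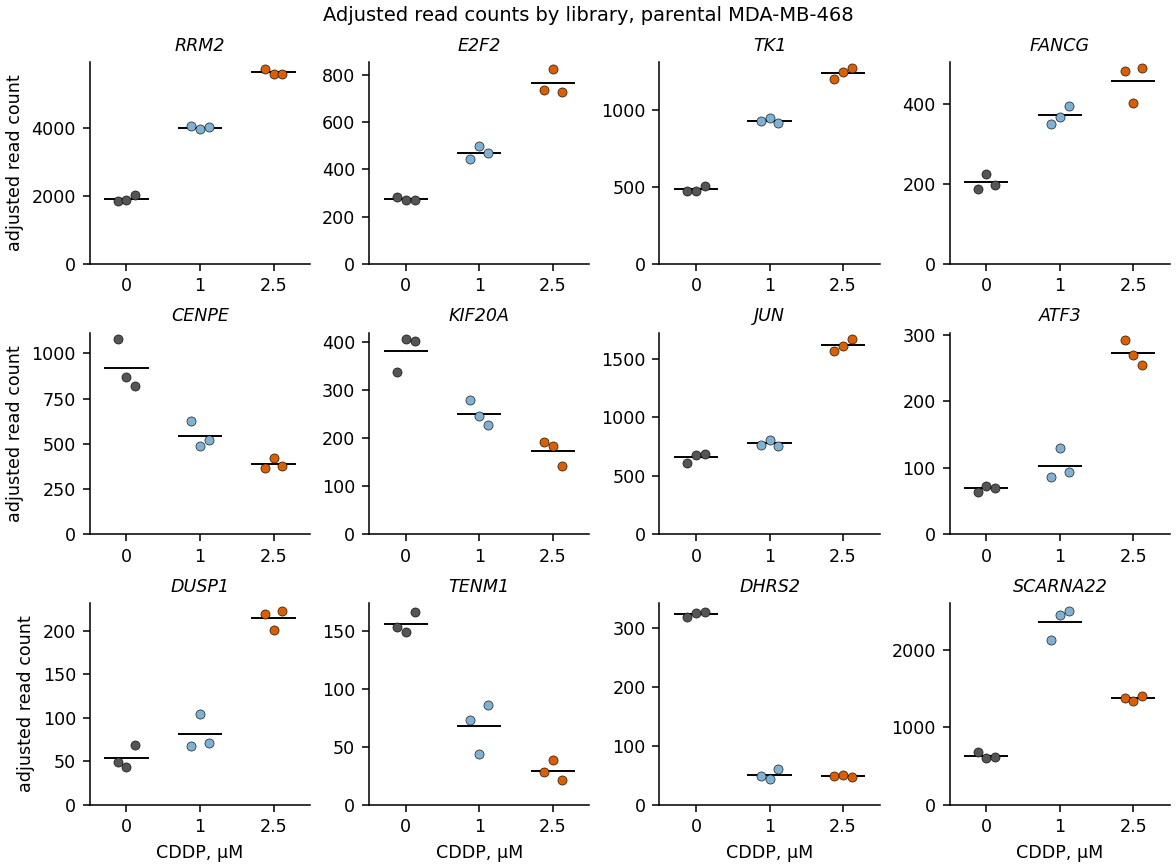
Each point is 1 library of parental MDA-MB-468 cells, with the CDDP dose in µM on the x axis and the adjusted read count on a linear y axis that starts at 0, and the horizontal line is the mean of the 3 libraries. Control and 2.5 µM libraries do not overlap in any of the 12 genes, which for RRM2, ATF3, DUSP1, TENM1 and DHRS2 was a condition for naming them. DHRS2 reached its low level of about 50 at 1 µM already, JUN and ATF3 stood far higher at 2.5 than at 1 µM, and SCARNA22 was higher at 1 than at 2.5 µM.

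The 10 largest falls were led by DHRS2, a dehydrogenase/reductase (chr14:23630115-23645639), with 318, 325 and 328 adjusted read counts in control and 48.9, 49.96 and 46.7 in treated libraries. Its log2 fold change was -2.71 ± 0.25 (SE) with an adjusted p of 1.98e-12 (limma), and the values within each group lay close together. LOC101929705, an uncharacterised locus whose name did not match the annotation, had 499.9, 480.4 and 523 in control and 99.7, 73.7 and 62.3 in treated cells (-2.68 ± 0.25, adjusted p 4.9e-12). LINC01447, a long non-coding RNA (chr7:47621939-47629893), had 188, 165 and 160.2 in control and 16.9, 25.3 and 50.5 in treated cells (-2.57 ± 0.26, adjusted p 5.05e-11). All 3 fell by more than 2 on the log2 scale, although the treated libraries of LINC01447 scattered widely. TENM1, a teneurin transmembrane protein encoded by a gene of 828 kb (chrX:124375903-125204312), had 153, 149 and 166 in control and 28.2, 38.6 and 21.05 in treated cells (-2.42 ± 0.19, adjusted p 2.3e-14). ISPD, an enzyme of dystroglycan glycosylation with a span of 334 kb, had 64.04, 83.6 and 94.6 in control and 26.6, 26.8 and 17.3 in treated cells (-1.74 ± 0.25, adjusted p 4.29e-07). SLC24A3, a sodium, potassium and calcium exchanger with a span of 510.3 kb, had 55.1, 58.1 and 48.5 in control and 13.1, 15.2 and 19.5 in treated cells (-1.71 ± 0.32, adjusted p 5.24e-05). These 3 genes each span more than 300 kb. The other 4 were short. LINC00641 had a log2 fold change of -1.69 ± 0.27, IL22RA2, a soluble receptor that binds interleukin-22, -1.66 ± 0.28, TMEM213 -1.62 ± 0.19 and CA3-AS1 -1.61 ± 0.43, with adjusted p-values from 4.23e-09 to 0.00337. CA3-AS1 is named for lying antisense to CA3, and whether the counting used strand is not given in the sources used here.

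The list of S phase and replication genes rose almost as a whole. Of its 49 members tested, 46 passed as higher, against 13.3% of all genes tested, and 0 as lower, with a median log2 fold change of 0.71 beside 0.0086 over all genes. Of these, 12 were DEGs. After RRM2 came E2F2, an activating E2F transcription factor (chr1:23505212-23531233), with 284, 271 and 269 in control and 738, 827 and 729 in treated cells (log2 fold change 1.47 ± 0.08, adjusted p 8.95e-21 by limma). TK1, the thymidine kinase of the salvage pathway (chr17:78174079-78187204), had 476, 478 and 505 and 1205, 1253 and 1275 (1.35 ± 0.07, adjusted p 5.23e-21), and CDT1, which loads the MCM helicase at origins (chr16:88803789-88809258), had 596, 679 and 584 and 1319.6, 1401 and 1453 (1.17 ± 0.07, adjusted p 1.04e-18). All 3 lay well apart between the groups. The other DEGs of the list were POLA2, a subunit of primase-polymerase alpha, with a log2 fold change of 1.26, CCNE2 (1.16), ORC6 (1.15), CDC45 (1.14), CDC6 (1.08), E2F7 (1.08), UHRF1 (1.06) and GINS4 (1.00). Smaller changes that passed were those of the helicase subunits MCM2 (0.74) and MCM7 (0.70), of PCNA (0.68), of RRM1 (0.84) and of the repressor E2F8 (0.65). TYMS had 1.12 with an adjusted p of 0.099 at very few reads, MCM6 had 0.09 (0.443) and E2F3 had 0.05 (0.697), and these 3 did not pass.

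E2F factors bind sites with the letters TTTGGCGC, TTTCCCGC, TTTCGCGC or TTTGCCGC, read on either strand. Such letters stood in 21 of the 40 S phase promoters that could be matched by symbol in RefSeq (52.5%), taken from 250 bases before to 50 after the start. They stood in 3.33% of all 27305 promoters and in 5.56% of the 10217 promoters of genes tested. Among the 10 matched promoters of the S phase DEGs, 5 held them. The homologous recombination and Fanconi list, described later, held them in 4 of 32 promoters. Shown are the 100 bases upstream of the start of the 4 S phase DEGs with the largest rise that hold the letters there, since they let the rise be read beside a promoter feature. The site is in capitals and each run is written 5′ to 3′ on the strand of the gene (GRCh38.p14).
E2F2 (chr1:23531234-23531333, minus strand): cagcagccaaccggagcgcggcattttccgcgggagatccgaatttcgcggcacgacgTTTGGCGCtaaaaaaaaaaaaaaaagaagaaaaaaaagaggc
POLA2 (chr11:65261862-65261961, plus strand): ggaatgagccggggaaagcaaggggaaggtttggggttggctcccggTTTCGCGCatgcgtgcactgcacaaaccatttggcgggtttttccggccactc
CDT1 (chr16:88803689-88803788, plus strand): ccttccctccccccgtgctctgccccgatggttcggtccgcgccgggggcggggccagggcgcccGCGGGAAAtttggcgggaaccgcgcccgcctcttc
UHRF1 (chr19:4909401-4909500, plus strand): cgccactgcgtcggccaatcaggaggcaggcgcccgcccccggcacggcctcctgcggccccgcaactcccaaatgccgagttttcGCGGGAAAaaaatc
The site lay 42, 53, 35 and 14 bases before the start in these 4 genes, counted at its first base. In CDT1 and UHRF1 it is on the opposite strand (GCGGGAAA). A match of letters is a description of the promoter, not a measured binding site.

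The G2/M and mitosis list was split. Of 44 members tested, 21 passed as lower, against 11.8% of all genes tested, and 3 as higher, with a median of -0.21, and 2 of them were DEGs. CENPE, a kinetochore motor protein (chr4:103105811-103198343), had 1079, 868 and 819 in control and 365, 419.8 and 377 in treated cells, a log2 fold change of -1.24 ± 0.09 with an adjusted p of 4.31e-16 (limma). KIF20A, a kinesin of cytokinesis (chr5:138179112-138187723), had 337, 405 and 400.3 and 193, 183 and 142 (-1.14 ± 0.12, adjusted p 6.38e-11). Both fell below the lowest control library in every treated library. The kinases AURKA and PLK1 fell with -0.72 and -0.73, and CENPF, CCNB1, MKI67, CDC20 and BUB1 fell with -0.70, -0.67, -0.49, -0.52 and -0.47. The members that rose were AURKB (0.69, from 875 ± 101 to 1408 ± 61.7), CDK1 (0.43, from 2116 ± 139 to 2840.3 ± 27.7) and KIF2C (0.44, from 759 ± 47.4 to 1031 ± 40.6). CDK1 is the kinase that drives entry into mitosis, and AURKB acts at centromeres and the midzone. Several classical members did not pass, among them FOXM1 (0.03, adjusted p 0.849), CCNA2 (0.03, 0.781), TPX2 (-0.02, 0.852) and UBE2C (0.13, 0.182).

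Many promoters of late cell cycle genes carry a cell cycle genes homology region (CHR), searched here as TTTGAA or TTTAAA on either strand. TTTAAA reads the same on both strands. CHR letters stood in 30 of the 37 matched G2/M promoters (81.1%), against 24.3% of all promoters and 15.9% of those of genes tested. By outcome they stood in 18 of the 20 matched promoters of members that fell, in 2 of the 3 that rose and in 10 of the 14 that did not pass. Shown are the upstream 100 bases of both G2/M DEGs and of 2 regulators that fell, PLK1 and CCNB1, with the CHR letters in capitals.
CENPE (chr4:103198344-103198443, minus strand): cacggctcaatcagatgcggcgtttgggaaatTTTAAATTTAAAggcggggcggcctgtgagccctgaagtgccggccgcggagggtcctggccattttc
KIF20A (chr5:138179012-138179111, plus strand): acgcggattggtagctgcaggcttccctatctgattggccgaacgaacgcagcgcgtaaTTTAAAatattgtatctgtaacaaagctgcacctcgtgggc
PLK1 (chr16:23678789-23678888, plus strand): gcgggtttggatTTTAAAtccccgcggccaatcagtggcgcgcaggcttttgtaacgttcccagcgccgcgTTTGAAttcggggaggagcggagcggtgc
CCNB1 (chr5:69167050-69167149, plus strand): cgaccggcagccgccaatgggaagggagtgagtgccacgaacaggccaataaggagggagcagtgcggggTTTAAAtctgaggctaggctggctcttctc
CENPE and PLK1 held 2 copies in this window and the others 1. The CHR and E2F letters were searched separately and share no bases in the runs shown.

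Genes of homologous recombination and the Fanconi pathway, which act on interstrand links and broken forks, were higher in 19 of 36 members tested and lower in 2, against 13.3% and 11.8% of all genes tested, with a median of 0.48. The 5 DEGs were all higher. BRIP1, a helicase partner of BRCA1 (chr17:61679139-61863528), had 93.3, 84.7 and 77.6 in control and 199, 193 and 214 in treated cells (log2 fold change 1.24 ± 0.13, adjusted p 2.07e-10 by limma). FANCG, a Fanconi core subunit (chr9:35073839-35079942), had 187, 225 and 198 and 479.9, 400.5 and 488 (1.16 ± 0.11, adjusted p 5.22e-12). UBE2T, the ubiquitin-conjugating enzyme of the Fanconi pathway (chr1:202331657-202341936), had 444, 387 and 449 and 838, 908 and 820.4 (1.00 ± 0.08, adjusted p 2.18e-14). It sat at the limit of 1 and lay under it in several alternatives, with 0.93 as the lowest value. In all 3 genes the groups did not overlap. XRCC3 was also a DEG, at 12.5 ± 10.1 and 22.4 ± 6.75 adjusted read counts with overlapping libraries (1.21, adjusted p 0.038). FANCI (0.94), BRCA2 (0.54), FANCD2 (0.56), BARD1 (0.58) and BRCA1 (0.48) rose by less than the limit. FANCF, a Fanconi core subunit, was among those that fell (-0.83, adjusted p 0.00143).

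Nucleotide excision and translesion genes had 5 of 26 members tested higher and 5 lower, near the 13.3% and 11.8% of all genes tested, with a median of -0.05. DDB2, a sensor of DNA lesions (chr11:47214454-47239217), had 60.8, 67.05 and 69.7 in control and 141, 148 and 156 in treated cells (log2 fold change 1.16 ± 0.16, adjusted p 7.8e-08 by limma). LIG1 (0.82) and MAD2L2 (0.81), a subunit of translesion polymerase zeta, rose. POLI, a translesion polymerase (chr18:54269479-54321266), had 48.2, 51.8 and 38.7 and 24.5, 25.2 and 15.4 (-1.08 ± 0.34, adjusted p 0.0129). Its fold change was -0.86 without treated replicate 3 and -0.99 without control replicate 2, both inside the limit of -1. HLTF (-0.48), REV1 (-0.34), POLK (-0.36) and RAD23B (-0.19) fell, and POLH had 0.07 with an adjusted p of 0.741. Among 19 checkpoint genes tested, 7 were higher and 1 lower, against the same shares of all genes. CDC25A, the phosphatase that activates CDK2 (chr3:48157146-48188417), had 206, 122 and 147 and 335, 307 and 362 (1.11 ± 0.13, adjusted p 1.18e-09), with 0.94 without control replicate 2. The fork protection proteins TIMELESS (0.86) and CLSPN (0.75) rose, CHEK1 rose by little (0.29), RAD17 fell (-0.42), and ATR and ATM had -0.28 and -0.01 without passing.

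Targets of p53 were higher in 10 of 29 members tested and lower in 1 (ZMAT3, -0.55), against 13.3% and 11.8% of all genes tested. Their median was 0.24, and DDB2 was the DEG. GADD45A, which acts in growth arrest after DNA damage, rose from 131 ± 11.1 to 231 ± 16.05 (log2 fold change 0.81, adjusted p 9.08e-08 by limma). CDKN1A, the CDK inhibitor p21, rose from 51.5 ± 16.002 to 95.6 ± 10.2 (0.92, adjusted p 0.000788). BTG2 (0.94), SESN1 (0.66), PMAIP1 (0.62), FDXR (0.57) and TP53I3 (0.57) rose too. MDM2, the ubiquitin ligase of p53, had -0.10 (adjusted p 0.386) and its libraries overlapped. Among genes of the BCL2 family, 2 of 15 members tested passed, both higher, the same share as the 13.3% of all genes tested: BAD (0.87, from 286 ± 28.2 to 524 ± 36.1) and PMAIP1, which encodes NOXA. MCL1 had 4054, 4323 and 3919 in control and 3843, 3783 and 3849 in treated cells (-0.10, adjusted p 0.194), and BID 0.15 (adjusted p 0.159). Of 12 death receptor genes tested, TNFRSF12A (0.60) and TNFRSF1B rose and TNFSF10, the ligand TRAIL, fell (-0.45). These were near the shares of all genes tested. TNFRSF1B, which encodes TNF receptor 2, rose from 5.69, 10.8 and 12.8 to 24.95, 27.1 and 36.9 (1.55 ± 0.36, adjusted p 0.000696).

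AP-1 and immediate early genes had 9 of 27 members tested higher and 5 lower, against 13.3% and 11.8% of all genes tested, and a median of -0.01. JUN, the core AP-1 subunit (chr1:58780791-58784047), had 609.7, 677 and 684 in control and 1569.5, 1606 and 1670.1 in treated cells (log2 fold change 1.30 ± 0.08, adjusted p 1.04e-18 by limma). FOSL2, a FOS family partner (chr2:28392858-28417317), had 46.2, 70.3 and 57.7 and 152, 152 and 160.1 (1.42 ± 0.19, adjusted p 9.42e-08). With ATF3, these genes had no treated library near the control range. KLF2 (1.52), FOSB (0.86), KLF6 (0.82) and JUND (0.66) rose. FOS (0.16, adjusted p 0.625), EGR1 (-0.25, 0.153) and JUNB (0.17, 0.236) did not pass. CTGF, a secreted matricellular protein and YAP target (chr6:131948176-131951372), fell from 232, 221 and 195 to 88.05, 93.7 and 77.4 (-1.31 ± 0.19, adjusted p 2.52e-07), while its relative CYR61 had -0.01 (adjusted p 0.975) and ANKRD1, another YAP target, rose. MYC (-0.39), SRF (-0.33) and IER5 (-0.43) fell by less than the limit.

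Of 19 MAPK feedback genes tested, 3 rose and 2 fell, near the shares of all genes tested. DUSP1, DUSP8 and EPHA2 (0.66) rose and the ERK-responsive factors ETV1 (-0.94) and ETV4 (-0.87) fell. DUSP8, a phosphatase of JNK and p38, had 28.3, 19.3 and 27.3 in control and 65.6, 63.7 and 55.4 in treated cells (1.29 ± 0.37, adjusted p 0.00646 by limma). DUSP6 had 0.28 (adjusted p 0.655) and SPRY2 0.12 (0.754). In the EGF receptor family, the ligand HBEGF rose from 15.5, 10.8 and 3.66 to 39.9, 21.8 and 33.5 (1.72 ± 0.41, adjusted p 0.00128), at few reads. EGFR fell from 2842 ± 97.9 to 2404 ± 67.4 (-0.24, adjusted p 0.000659) and ERBB3 from 511 ± 25.1 to 385 ± 26.9 (-0.41, adjusted p 0.000914), and AREG had 0.61 (adjusted p 0.455).

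The integrated stress response list, made of ATF4 and its targets, had 6 of 32 members tested higher and 5 lower against control, near the 13.3% and 11.8% of all genes tested, and a median of 0.00. MTHFD2, a mitochondrial folate enzyme (chr2:74198615-74217565), had 1102, 1101 and 1109 in control and 1844, 2036 and 1896 in treated cells (log2 fold change 0.80 ± 0.06, adjusted p 1.75e-15 by limma). It rose in every treated library but below the limit of 1, so ATF3 was the only DEG of the list. CTH (0.80), SESN2 (0.48), PCK2 (0.34) and SHMT2 (0.25) rose. SLC7A5 (-0.52), CEBPB (-0.42), TRIB3 (-0.33), PSAT1 (-0.21) and ATF4 itself (-0.17) fell. ASNS, CHAC1 and STC2 had fold changes of -0.04, 0.01 and -0.01 with adjusted p-values from 0.823 to 0.973. PPP1R15A, which restores translation after stress, had 0.31 (adjusted p 0.0743). It is the only one of the 26 matched promoters of this list with the cAMP response element TGACGTCA, which 1.98% of all promoters and 3.32% of those of genes tested hold. This palindrome stands in capitals in its upstream 100 bases.
PPP1R15A (chr19:48872321-48872420, plus strand): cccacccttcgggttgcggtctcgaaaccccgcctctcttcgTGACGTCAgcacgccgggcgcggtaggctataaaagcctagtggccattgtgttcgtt
The composite ATF4 element TGATGNAAT was in 0 of the 26 promoters, in 1.02% of all promoters and in 0.431% of those of genes tested. The AP-1 letters TGANTCA were in 2 of these 26 and in 1 of the 19 matched promoters of the AP-1 list, against 7.76% of all promoters and 4.36% of those of genes tested.

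**Figure D3:**
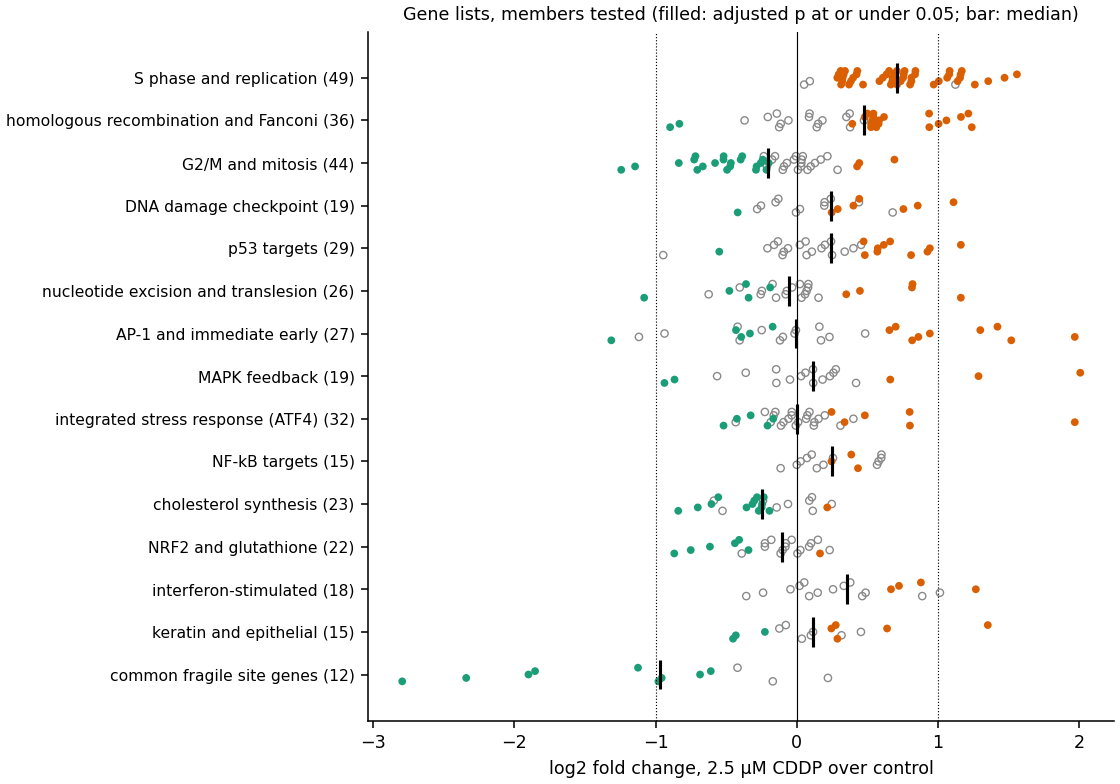
Each point is a member of a gene list that passed the filter on low values, placed by its log2 fold change with 2.5 µM CDDP over control (x axis), filled where the adjusted p was at or under 0.05 (orange higher, green lower) and open otherwise, and the bar is the median of the list. The number of members is in parentheses and dotted lines mark 1 and -1. The S phase list has its median at 0.71 and the list of genes at common fragile sites at -0.97, while the integrated stress response and AP-1 lists are spread around 0. CXCL8, with few reads, is left out.

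Genes of the cholesterol synthesis list were lower in 13 of 23 members tested and higher in 1, against 11.8% and 13.3% of all genes tested. Their median was -0.25, with no DEG. INSIG1, which retains the sterol sensor in the endoplasmic reticulum, fell from 1160.4 ± 50.7 to 714 ± 47.3 (log2 fold change -0.70, adjusted p 7.94e-12 by limma). SQLE (-0.60) and HMGCS1 (-0.56) also fell, and EBP rose (0.22). FDFT1, which makes squalene, had 2582, 2729 and 2758 and 2248, 2211 and 2326, a small fall (-0.25) without overlap of the libraries. NRF2 and glutathione genes had 6 of 22 members lower (27.3%) and 1 higher (4.55%), beside the same shares of all genes. AKR1C2 (-0.87), ABCC1 (-0.75) and HMOX1, heme oxygenase (-0.61), fell, TKT fell from 2859.7, 2581 and 2644 to 2065, 2173 and 2135 (-0.34), and GCLM, NQO1 and FTH1 did not pass (0.09, 0.15 and -0.10). AKR1C1, AKR1C2 and AKR1C3 are near-identical genes whose reads could have been split among them. Of 8 genes of metallothioneins and platinum transport tested, 2 rose (25%), MT1F and MT1X (1.59 and 0.70). MT2A (0.01), the copper and platinum importer SLC31A1 (0.00) and the exporter ATP7A (-0.13) did not pass.

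The counts of the next lists stand beside 13.3% higher and 11.8% lower over all genes tested. Heat shock genes had 1 of 17 members higher (5.88%, HSPA4L, 0.92) and 4 lower (23.5%), among them the endoplasmic reticulum chaperone HSPA5 (-0.43). HSP90AA1 had 14805, 13857 and 14155 in control and 15158, 14803 and 14879.8 in treated cells, and HSP90AB1 8479, 8866 and 8791 and 8811, 8656 and 8460.2, with overlapping libraries. Hypoxia genes had 3 of 23 members higher (13.0%, near the share of all genes) and 5 lower (21.7%). ADM (0.73) and ANGPTL4 (-0.64) were at the ends of those that passed, and PGK1 (0.08) and DDIT4 (-0.16) did not pass. In the TGF-beta and ID list, 5 of 17 members were higher (29.4%) and 1 lower (5.88%). ID3, an inhibitor of helix-loop-helix factors (chr1:23557926-23559501), had 1173, 1153 and 1138 in control and 2440.5, 2441 and 2546 in treated cells (log2 fold change 1.10 ± 0.06, adjusted p 2.84e-21 by limma), while its relative ID1 fell (-0.60). Interferon-stimulated genes were higher in 4 of 18 members (22.2%). ISG15, a ubiquitin-like modifier (chr1:1013497-1014540), had 37.7, 42.7 and 28.4 and 64.02, 96.9 and 108 (1.27 ± 0.18, adjusted p 3.77e-07). Among 15 keratin and epithelial genes, 5 were higher (33.3%) and 3 lower (20%). KRT16, a stress keratin (chr17:41609778-41612767), had 24.2, 51.2 and 41.9 and 77.96, 112 and 104 (1.35 ± 0.17, adjusted p 2.71e-08), KRT5 rose (0.64) and KRT7, CLDN4 and CDH1 fell (-0.43, -0.45 and -0.23). Of 16 NF-kB targets tested, 4 passed (25%), all higher: BIRC2 (0.25), IRF1 (0.39), CD83 (0.43) and CXCL8. CXCL8, which encodes interleukin-8, had 0 reads in every control library and 2 to 16 reads in the treated libraries, so no fold is given. NFKBIA and TNFAIP3, the feedback inhibitors, had -0.11 and 0.60 without passing.

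Families picked by name were counted after their values had been seen. Of 98 small nucleolar and Cajal body RNAs tested (snoRNA and scaRNA names), 28 passed as higher and 0 as lower, 21 of them DEGs, with a median of 0.67, against 13.3% passing as higher and 1.64% DEGs higher over all genes tested. Their summed share of all adjusted counts was 0.102% in each control library and 0.156 to 0.172% in the treated libraries. SCARNA22 (chr4:1974636-1974760) had 676, 606 and 616 in control and 1383, 1342 and 1402 in treated cells (log2 fold change 1.12 ± 0.08, adjusted p 4.53e-16 by limma). RNU4ATAC, a spliceosomal RNA of the minor spliceosome (chr2:121530880-121531009), had 4610.4, 4564 and 4285 and 6995, 6854 and 6882 (0.62 ± 0.07, adjusted p 3.26e-09). These RNAs mostly lack a poly(A) tail, so reads primed with oligo(dT) cover them only in part. Of 11 alpha- and beta-tubulin genes tested, 7 rose, against 13.3% of all genes tested, and 0 fell, with a median of 0.79. They included TUBA1B (0.79), TUBB6 (1.16), TUBB2A (1.41) and TUBB3 (1.27). Of 34 clustered histone genes tested, 1 passed as higher (2.94%) and 4 as lower (11.8%), against 13.3% and 11.8% of all genes tested. HIST1H4C rose from 10441, 11196 and 11288 to 18157, 17385 and 17488 (0.69). HIST1H2BK (-0.82) and HIST1H1D (-0.83) were among those that fell. Replication-dependent histone messages also lack a tail, so the same limit holds for them.

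The lower DEGs included many long genes, and 59 of the 122 with a known span were under 100 kb. Their median span, from the first to the last annotated base, was 121.6 kb, against 12.3 kb for higher DEGs and 28.6 kb for all genes tested. A span of 300 kb or more was found for 40 of the 124 lower and 0 of the 213 higher DEGs (3 higher with no filter on low values). By the adjusted p alone, the share of genes that fell rose with span, from 6.83% of 2941 genes under 10 kb through 8.06% of 3672 genes of 10 to 30 kb, 11.9% of 3984 of 30 to 100 kb and 21.2% of 1822 of 100 to 300 kb to 42.2% of 391 genes of 300 kb or more. The share that rose went from 21.1% through 17.3%, 9.89% and 4.12% to 0.512%. Median log2 fold changes were 0.10, 0.07, -0.01, -0.15 and -0.42 in the same order. In the longest class, 25 genes had at most 3 reads in every library of a group, and the median was -0.41 with these genes at a bound of 3 reads per library. Genes of 300 kb or more took 1.24 to 1.28% of the adjusted counts in control libraries and 0.967 to 1.00% in treated libraries.

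**Figure D4:**
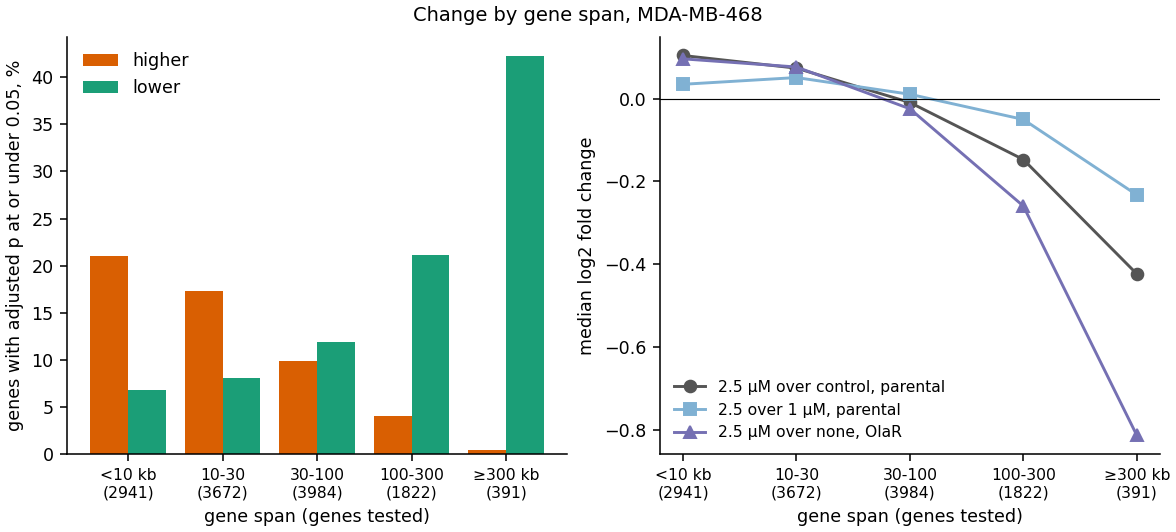
Left, the share of genes that passed at an adjusted p of up to 0.05 and were higher or lower with 2.5 µM CDDP over control, in percent, in 5 classes of gene span with the number of genes tested in parentheses. Right, the median log2 fold change in the same classes for 2.5 µM over control and for 2.5 over 1 µM in parental cells, and for 2.5 µM over none in OlaR cells. The share lower goes from 6.83% in the shortest to 42.2% in the longest class, and all 3 medians are lowest in the longest class, at -0.42, -0.23 and -0.81.

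The level of a gene bore on how many long genes passed the limit on fold change. Of genes of 300 kb or more, DEGs that fell made up 21.8% at a mean under 30 adjusted read counts, 11.4% at 30 to 100, 1.87% at 100 to 300 and 0 of 60 genes at 300 or more. The median change was nonetheless below 0 at each level, from -0.62 at the lowest to -0.29 at the highest. The 4 longest DEGs were FHIT, NAALADL2, ANKS1B and PARD3B. FHIT, a tumour suppressor at the fragile site FRA3B (chr3:59747277-61251452), had 21.2, 12.8 and 23.1 in control and 1.31, 1.56 and 2.74 in treated cells (log2 fold change -2.79 ± 0.66, adjusted p 0.000955 by limma). NAALADL2 (chr3:174440982-175810548) had 27.5, 34.6 and 49.5 and 5.84, 14.97 and 8.96 (-1.85 ± 0.38, adjusted p 0.000159). ANKS1B (chr12:98734786-99984936) had 23.2, 8.23 and 19.3 and 6.70, 3.07 and 3.75 (-1.64 ± 0.61, adjusted p 0.04), and PARD3B, a polarity protein (chr2:204545475-205620162), had 20.4, 6.96 and 14.7 and 7.02, 0.602 and 1.70 (-2.09 ± 0.56, adjusted p 0.00396) with libraries that overlapped. The fall of ANKS1B no longer passed when any 1 of 4 libraries was left out (control replicates 1 and 3, treated replicates 2 and 3), at -1.56 to -1.37, and that of PARD3B without treated replicate 2, at -1.58.

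Of 20 listed genes at common fragile sites, 12 passed the filter on low values and were tested. Of these, 9 fell, against 11.8% of all genes tested and 42.2% of genes of 300 kb or more. None rose, and the median was -0.97. Lower DEGs numbered 5, against 0.953% of all genes tested and 10.2% of genes of 300 kb or more. These 5 DEGs were FHIT, NAALADL2 and 3 others. IMMP2L, a mitochondrial inner membrane peptidase with a span of 899.8 kb, had 34.3, 23.98 and 39.5 in control and 4.70, 2.91 and 11.4 in treated cells (log2 fold change -2.34 ± 0.37, adjusted p 2.73e-06 by limma). PTPRG, a receptor phosphatase of 736 kb, had 16.7, 17.1 and 16.8 and 4.30, 4.03 and 3.11 (-1.90 ± 0.41, adjusted p 0.000301), and NBEA, a scaffold protein of 730.5 kb, had 72.7, 87.8 and 71.1 and 34.7, 42.4 and 28.5 (-1.12 ± 0.20, adjusted p 1.42e-05, and -0.98 without treated replicate 3). The control and treated libraries were apart in all 3. WWOX (-0.68), EXOC4 (-0.61), THSD4 (-0.98) and DPYD (-0.96) fell by less than the limit, and DMD (-0.42), AUTS2 (-0.17) and PDE4D (0.22) did not pass. The list and the span classes hold genes in common, so they are not separate evidence of one another.

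The step from 1 to 2.5 µM CDDP was tested directly, with the same 2.5 µM libraries as above and 1 µM libraries of 5574767 to 7174370 reads. It gave 21 DEGs higher (0.161%) and 31 lower (0.238%) at the higher dose, and 471 (3.62%) and 435 (3.34%) by the adjusted p alone. JUN had 766, 807 and 756 adjusted read counts at 1 µM beside 1569.5, 1606 and 1670.1 at 2.5 µM, a log2 difference of 1.06 with an adjusted p of 2.01e-14 (limma). ATF3 (1.41) and DUSP1 (1.42) were likewise higher at 2.5 µM, and 16 of the 27 AP-1 and immediate early genes passed as higher. CYR61 had 863, 943 and 825 in control, 488, 405 and 403 at 1 µM and 824, 909 and 885 at 2.5 µM, so the difference of 1.02 (adjusted p 1.29e-10) lay between a low value at 1 µM and a value in the control range at 2.5 µM. Under other settings this difference was 0.97 to 1.11, near the limit of 1. EGR1 also had its lowest mean at 1 µM, with 793 in control, 307 at 1 µM and 667 at 2.5 µM, and a difference of 1.12. In the integrated stress response list, 24 of 32 members were higher at 2.5 than at 1 µM and 0 lower. SLC3A2, a subunit of amino acid transporters (chr11:62856109-62888860), had 1279.8, 1267 and 1261 in control, 871, 866 and 818 at 1 µM and 1365, 1467 and 1405 at 2.5 µM (0.73, adjusted p 6.48e-11), and MTHFD2 had 1258, 1270.4 and 1256 at 1 µM (0.61, adjusted p 1.91e-10). ASNS (0.72), CHAC1 (0.83), STC2 (0.75) and PPP1R15A (0.59) were also higher at 2.5 µM.

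Counts for this dose step stand beside 3.62% higher and 3.34% lower over all genes tested. Of the S phase genes, 21 of 49 were higher at 2.5 than at 1 µM, 0 were lower and 28 did not pass. RRM2 had 4063, 3985 and 4032 at 1 µM (0.49, adjusted p 1.04e-09 by limma) and E2F2 443, 499 and 469 (0.70, adjusted p 6.27e-09). Of the G2/M genes 20 of 44 were lower at 2.5 µM, among them CENPE (-0.49), KIF20A (-0.54), AURKA (-0.48) and MKI67 (-0.45), while AURKB was higher (0.31). Of the 391 genes of 300 kb or more, 38 were lower at 2.5 µM and 1 higher, with a median of -0.23, and TENM1 had 72.97, 43.9 and 85.6 at 1 µM (-1.17, adjusted p 3.2e-05). Of the snoRNA and scaRNA names 14 of 98 were lower at 2.5 than at 1 µM and 0 higher. SCARNA22 had 2135, 2455 and 2511 at 1 µM (-0.78, adjusted p 7.28e-10) and RNU4ATAC 10324, 11949 and 13173 (-0.77, adjusted p 1.29e-10), and in both the 1 µM libraries were the highest of the 3 doses. MALAT1, a nuclear long non-coding RNA (chr11:65497738-65506516), had 3616, 3232 and 3691 in control, 3952, 3540.0 and 3732 at 1 µM and 2172, 2203 and 1996 at 2.5 µM (-0.82, adjusted p 9.12e-15). PNISR, a splicing-related serine/arginine-rich protein, had 1361, 1207 and 1258, 1550.3, 1270.1 and 1613 and 979, 833 and 928 (-0.69, adjusted p 1.04e-09). In both, the 1 µM libraries overlapped the control libraries and the 2.5 µM libraries lay below all others. Of the heat shock genes 9 of 17 were lower at 2.5 than at 1 µM, with HSP90AA1 at 20033, 17845 and 20199.5 at 1 µM (-0.37) and HSP90AB1 at 10294, 9934 and 10412 (-0.24). DHRS2, PI3 and PEG10 had dose differences of -0.06, 0.02 and -0.07 with adjusted p-values of 0.938, 0.921 and 0.617.

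The same dose was also given to OlaR cells, and the difference of the changes (OlaR minus parental) was tested as an interaction. It passed for 597 genes as higher (4.59%) and 981 as lower (7.54%). The OlaR libraries were shallower than the parental ones, at 4588288 to 4676284 reads without CDDP and 2070301 to 4455837 with it, and the part of depth in the difference was not tested. OlaR cells, with olaparib present, also started from other levels for many of these genes. Genes named for a large change in parental cells were chosen on the parental side of this difference. RRM2 had 2710.0, 2771 and 2636 in OlaR cells and 4291, 4361 and 4126 with CDDP, a log2 change of 0.65 against 1.56 in parental cells, and the difference was -0.90 (adjusted p 2.93e-13 by limma). E2F2 had 723, 753 and 741 and 815, 775 and 908. Its untreated OlaR libraries overlapped the CDDP-treated parental libraries, and it changed by 0.17 with CDDP (difference -1.30, adjusted p 1.25e-12). TUBA4A and KRT16 likewise started higher in OlaR cells, at 372, 353 and 286 and 375, 395 and 386. ID3 went in opposite directions. It had 2147, 2356 and 2294 and 1689.9, 1597 and 1732 in OlaR cells, a change of -0.44 (adjusted p 4.06e-08) against 1.10 in parental cells, and the difference was -1.54 (adjusted p 9.81e-21). HIST1H4C had 8051, 7730.4 and 9859.7 and 5947, 6280.2 and 6244 (-0.47 against 0.69, difference -1.15, adjusted p 3.79e-15).

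MALAT1 rose in OlaR cells from 2128, 2183 and 2155 to 2884, 3089 and 3123, by 0.49 against -0.72 in parental cells (difference 1.22, adjusted p 5.58e-16 by limma). CTGF rose from 149.8, 166 and 169 to 245, 246 and 238 where it fell in parental cells, and GPATCH4, a nucleolar G-patch protein, rose from 807, 847 and 953 to 1172, 1169 and 1102 after a fall from 986, 898 and 1002 to 654, 684 and 704 in parental cells. PI3, the elastase inhibitor elafin, fell in parental cells from 3987, 4073 and 4167 to 2079, 2069 and 2183 and had 1024, 1019 and 886 and 1033, 1010.5 and 935 in OlaR cells (0.98, adjusted p 7.7e-13). PEG10, a retrotransposon-derived protein, fell from 2255, 2193 and 2229 to 1232, 1215 and 1113 and had 1701, 1549 and 1603 and 1683, 1591 and 1650.4 in OlaR cells (0.93, adjusted p 8.73e-12). TENM1, by contrast, had 217, 200.1 and 192 and 42.02, 43.5 and 54.2 in OlaR cells, a change of -2.11 against -2.42 in parental cells (difference 0.31, adjusted p 0.524, SE 0.27). Genes of 300 kb or more had a median change of -0.81 in OlaR cells against -0.42 in parental cells. In the difference, 75 of 391 passed as lower and 3 as higher, against 7.54% and 4.59% of all genes tested. KIF20A had a difference of 0.27 (adjusted p 0.327), CDC25A -0.33 (0.238) and GADD45A 0.19 (0.475), which did not pass.

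**Figure D5:**
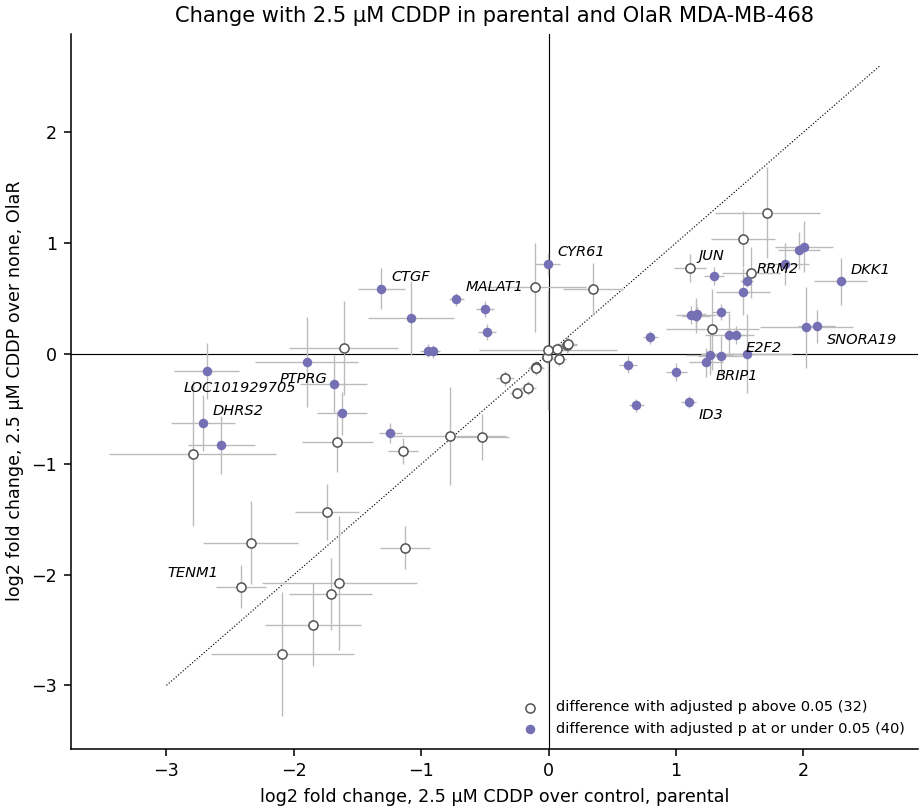
Each point is 1 of 72 named genes, with its log2 fold change with 2.5 µM CDDP over control in parental cells (x axis) and over none in OlaR cells (y axis), bars of 1 SE, and a dotted line where both are equal. Filled points are the 40 genes whose difference passed at an adjusted p of up to 0.05. Some of them were named for the smallest p of this same difference. ID3, MALAT1 and CTGF lie in quadrants of opposite change, and TENM1 lies near the dotted line.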

How the data were processed

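Total RNA from 54 samples was measured with QuantSeq 3′ mRNA libraries. The submitters' processing notes name CASAVA 1.8.2, FastQC, STAR, HTSeq, edgeR and hg38, and the strand setting and annotation of the counting are not given in the sources used here. RNA was purified with RNeasy by the labels and Trizol by the paper. Libraries were multiplexed, and which of them shared a batch is not stated, so batches could not be examined.

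The signal that the authors deposited, in 1 table of 27470 genes, is reads per gene adjusted by edgeR to a common library size within each condition (common dispersion 0.010385). The inverted adjustment returned whole reads for 100% of 741690 values of the 27 MDA-MB-468 libraries within 1e-06. These libraries held 2070301 to 9268162 reads, and genes with few reads have imprecise folds. The authors' deposited tables of their own comparisons (log2 fold change, p-value and FDR against untreated cells) were not used.

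Because the values are not whole, limma 3.58.1 with an intensity trend (R 4.3.3) was fitted to log2 values after adding a pseudocount of 1, over 27 libraries and 9 conditions, and fold changes of low genes are understated on this scale. Genes with at least 10 in 3 libraries were kept, and p-values were adjusted by Benjamini-Hochberg over 13012 genes. DEGs passed at an adjusted p of up to 0.05 with a log2 fold change of 1 or more in either direction (the paper names both this limit and one of 2), and the interaction was called without that limit. The test was also run on simulated data, with the same dispersion for every gene and changes only in genes with a control mean of at least 30. That run does not bear on changes in genes with lower means, and its outcome is not given here. Alternatives were other limits, filters, pseudocounts, scalings, limma voom, edgeR 4.0.16 and DESeq2 1.42.0 on recovered reads, a fit of only the libraries compared, a replicate block, and leaving out each library.

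Members and gene lists were chosen with earlier results of these data known. Named by rule were the 10 largest rises and falls with a mean of at least 30 and no overlap, up to 4 passing members per list (otherwise the 1 or 2 with the largest mean), the 4 longest DEGs, and the 4 genes with the smallest p in each direction of the dose difference and the interaction. Other list members are examples chosen after their values were seen, as were the families counted by name and the promoter letters searched. Spans and promoters are those of RefSeq GRCh38.p14, matched for 25201 current and 1220 older symbols of the table. Mitochondrially encoded genes were not analysed here, and some genes that the rule names are not reported here.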

Additional observations from a re-analysis of the deposited data

Results flagged for a closer look

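The change with 2.5 µM CDDP differed between OlaR and parental cells for 597 genes as higher (4.59%) and 981 as lower (7.54%) (limma, adjusted p of the interaction at or under 0.05). Among the 73 named genes it differed for 40, 15 higher and 25 lower, and in 5 of these the changes in both cell types passed with opposite signs. Named genes were in part chosen for a large change in parental cells, and olaparib was present in the OlaR cultures, so resistance and the drug's presence cannot be told apart.

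Differences are given as OlaR minus parental on the log2 scale. Of the genes with the largest rises in parental cells, the difference was -1.64 for DKK1, -1.86 for SNORA19, -1.79 for ANKRD1, -1.04 for DUSP1, -1.03 for ATF3, -1.05 for BIN1, -0.90 for RRM2 and -0.97 for TUBA4A. Of the largest falls, it was 2.08 for DHRS2, 2.53 for LOC101929705, 1.74 for LINC01447, 1.41 for LINC00641 and 1.08 for TMEM213. In replication and repair genes it was -1.30 for E2F2, -0.98 for TK1, -0.81 for CDT1, -1.32 for BRIP1, -0.82 for FANCG, -1.17 for UBE2T and -0.82 for DDB2, against 1.40 for POLI and 0.53 for the mitotic motor CENPE.

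In AP-1, YAP target and stress genes it was -1.25 for FOSL2, -0.60 for JUN, -0.65 for MTHFD2, 1.90 for CTGF and 0.82 for CYR61. In other signalling and epithelial genes it was -1.56 for TNFRSF1B, -1.54 for ID3, -1.28 for ISG15, -1.37 for KRT16, 1.82 for PTPRG, 0.98 for PI3, 0.93 for PEG10 and 0.90 for GPATCH4. In nuclear and small RNAs and related genes it was 1.22 for MALAT1, 0.68 for PNISR, -0.77 for SCARNA22, -0.72 for RNU4ATAC and -1.15 for HIST1H4C.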

How the results depend on the processing

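For 2.5 µM against control there were 23 DEGs higher and 19 lower at a log2 fold change of 2 or more in size, 1737 and 1532 with no limit, and 103 and 55 with a filter of 50. For 2.5 against 1 µM these were 3 and 2, 471 and 435, and 11 and 14, and with no filter 51 and 91. The dose difference gave 49 lower with limma voom, 34 higher and 50 lower with edgeR, and 18 lower in a fit of only the libraries compared. Without each library in turn, counts were 188 to 213 higher and 107 to 142 lower against control, 17 to 30 and 21 to 33 between doses, and 477 to 544 and 775 to 924 for the interaction. The labels do not say that replicate numbers pair libraries. Deviations of the 2.5 µM libraries correlated at -0.047 to 0.024 with those of the same number in other groups. These values run over all genes, low ones included, and cannot show whether libraries shared a culture or batch. With a replicate block there were 211 and 122, 21 and 28, and 577 and 942. Higher DEGs of 300 kb or more numbered 3 with no filter, lower ones 18 with the filter of 50, which tests fewer genes, and small RNAs lower at 2.5 than at 1 µM numbered 25 with limma voom and 22 with edgeR. Of 78 results of named genes, 71 stayed on their side of the threshold in every fit run and 7 did not in at least 1 (UBE2T, POLI, CDC25A, NBEA, PARD3B, ANKS1B and the dose difference of CYR61), and no call turned in direction, while genes that did not pass, such as ERBB2, PECAM1 and HSP90AB1, changed sign between fits. Where no construction is named, the cause was not tested. Depth limits genes with few reads.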
